A study of Mus musculus with 6 samples.

Results

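The SLC25 family holds the carriers that move metabolites across the inner membrane of mitochondria. It was taken here as the probe sets with a single gene symbol made of Slc25a and a number. The rule found 46 genes among the 19505 with a single symbol, each measured by 1 probe set, and all 46 were tested. SLC25 proteins exchange nucleotides, carboxylates, amino acids and cofactors between the matrix and the cytosol, and most are built from repeats of a shared fold. Mitochondria of the adrenal cortex house steps of steroid synthesis that draw on the reducing power and ATP these exchanges help to supply.

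Whole adrenal glands of 6 female mice aged 2 months were each hybridised to a separate Affymetrix array of whole-transcript design. The 3 control animals had the genotype Mst1flox/flox;Mst2flox/flox, and the 3 mutant animals had Mst1flox/flox;Mst2flox/flox;Nr5a1-cre. All animals thus carried floxed alleles of both Hippo kinase genes, and the groups differed by Nr5a1-Cre, a recombinase active in steroid-producing cells. Whole glands also hold medulla, capsule, vessels and attached fat. Strain background is not stated in the labels.

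Deposited values are log2 signals. Median signals of the 6 arrays lay between 6.76 and 6.83 over 22206 probe sets, and 16 of these, 0.0721%, passed a limma adjusted p of 0.05 between the groups. The targeted kinase gene Stk4 measured 8.64 in control and 8.32 in mutant glands on average (log2 change -0.32, SE 0.19, limma adjusted p = 0.623). Its probes are not placed relative to the floxed exons in the sources used here, so it does not check the labels, and Stk3 was not analysed here. The tissue label was checked with 10 cortical markers such as Star and Cyp11a1, whose mean signal was 17.60 to 17.65 in controls and 17.42 to 17.59 in mutants, lower for 8 of 10 genes. Adipocyte markers varied most between animals, with a mean over 10 genes of 7.66, 9.13 and 10.51 in controls and of 11.99, 9.44 and 8.79 in mutants. Endothelial markers were higher in mutants for 6 of 7 genes, with list means of 13.00 to 13.28 in controls and 13.51 to 13.60 in mutants. Fibroblast markers were higher for 7 of 8 genes, with list means of 10.14 to 10.68 and 10.52 to 11.49. Macrophage markers were higher for 6 of 6 genes, with list means of 8.02 to 8.25 and 8.40 to 8.58, and smooth muscle markers for 5 of 7, with 9.19 to 9.40 and 9.56 to 9.98. In each of these lists 0 genes passed the limma test, and an unadjusted p under 0.05, which 10.4% of all probe sets reached, was found for 5 of 7 endothelial, 3 of 8 fibroblast, 3 of 7 smooth muscle, 2 of 6 macrophage, 1 of 10 cortical and 0 of 10 adipocyte markers. Chromaffin markers, of the medulla, were lower in mutants for 8 of 9 genes. Their list means overlapped, with 11.85 to 12.85 in controls and 11.98 to 12.00 in mutants. Among them 0 passed the limma test and 1, Phox2a, had an unadjusted p under 0.05. Some markers had both group means within the range of background probe sets given below. They were Phox2a, 1 of 10 adipocyte and 3 of 6 macrophage markers, and the 2 smooth muscle markers that were lower. Cd163, 1 of the 2 macrophage markers with an unadjusted p under 0.05, was among them. In such bulk tissue, fewer cells of a type and less RNA per cell cannot be told apart.

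Of the 46 carriers, 31 had a mean signal above 2.53 to 7.32, the span of signals of the platform's own 23 background probe sets. The remaining 15 had both group means within that range. Signals of different probe sets share no scale of abundance, so the levels below say whether a transcript stood clear of background and do not rank the carriers by amount. Between the 3 control animals the carriers varied little, with a median SD of 0.14 log2 units and a range from 0.01 for Slc25a16 to 0.64 for Slc25a25.

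**Figure D1:**
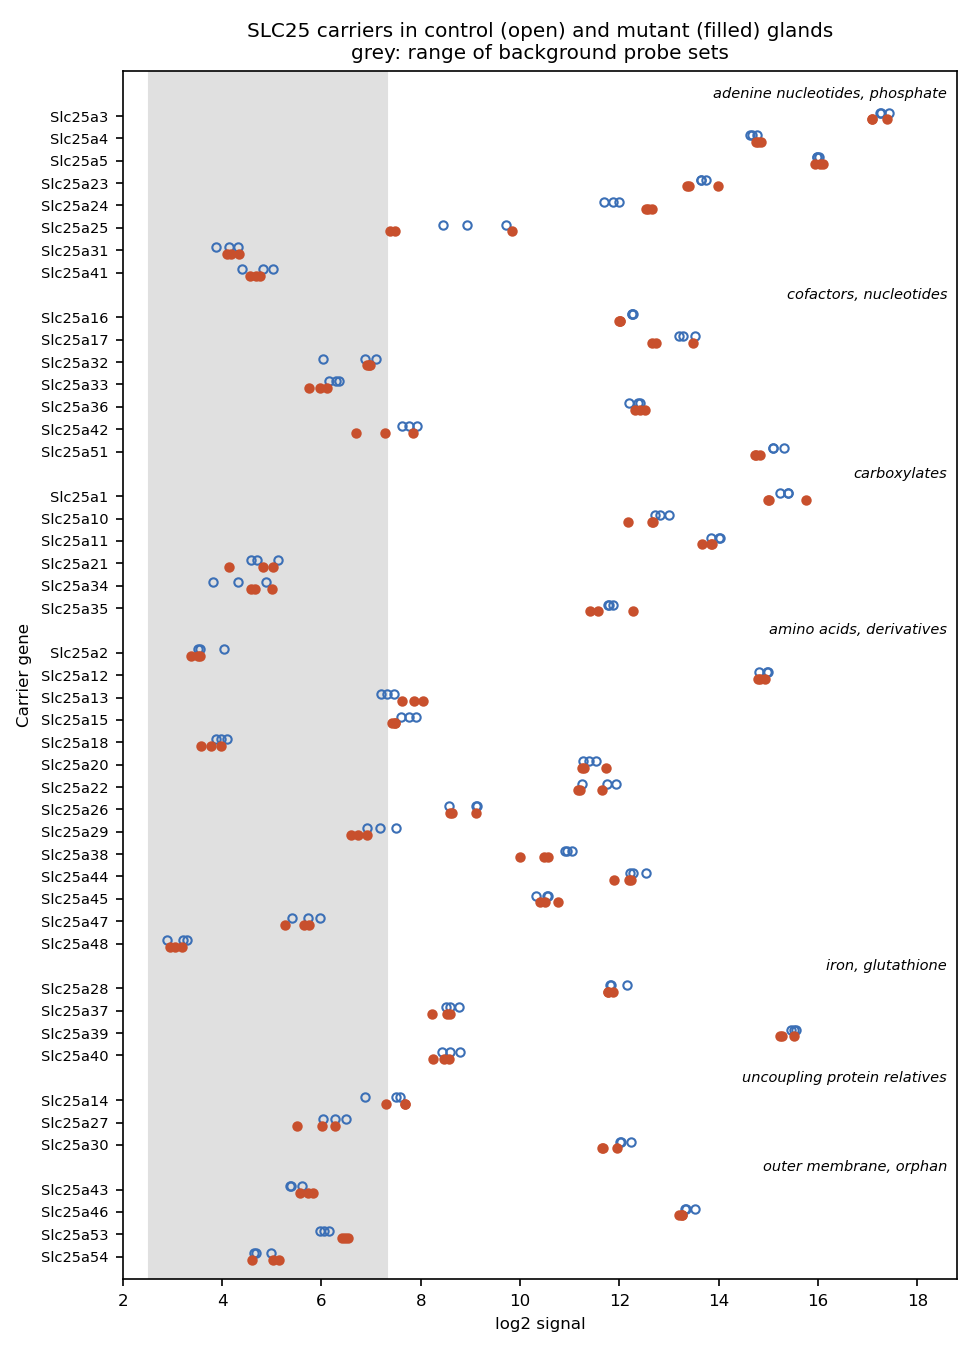
Log2 signal (horizontal axis) of the 46 carriers, 1 row per gene, grouped by substrate; open circles are the 3 control animals, filled circles the 3 mutant animals, and grey marks the range of background probe sets, 2.53 to 7.32. Control means run from 3.13 for Slc25a48 to 17.31 for Slc25a3, and 15 genes have both group means within the grey range.

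Among carriers of adenine nucleotides and phosphate, Slc25a3, the phosphate carrier that feeds ATP synthase, measured 17.31 ± 0.10 in control glands (SD, n = 3). The ADP/ATP carrier genes Slc25a4 and Slc25a5 measured 14.69 ± 0.07 and 15.98 ± 0.02 (SD, n = 3 each). The germ cell form of the same exchanger, Slc25a31, lay within the background range at 4.12 ± 0.22 (SD, n = 3). Of the calcium-regulated ATP-Mg/phosphate carriers, Slc25a23, Slc25a24 and Slc25a25 stood above background with control means of 13.68, 11.85 and 9.04, whereas Slc25a41 lay within it at 4.75.

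Related carriers of amino acids often split into a clear and a dim member in control glands. Slc25a12, an aspartate/glutamate exchanger of the malate-aspartate shuttle, measured 14.92 ± 0.10, while its paralog Slc25a13 measured 7.33 ± 0.13, at the upper edge of the background range (SD, n = 3 each). For mitochondrial glutamate transport, Slc25a22 measured 11.65 ± 0.36 and Slc25a18 was within background at 3.99 ± 0.12 (SD, n = 3 each). For ornithine, Slc25a15 measured 7.75 ± 0.15, just above the background range. Slc25a2 was within it at 3.70 ± 0.30 (SD, n = 3 each). The carnitine/acylcarnitine carrier Slc25a20, which brings fatty acids in for oxidation, measured 11.39 ± 0.13 (SD, n = 3).

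Among carriers of cofactors and nucleotides, the pyrimidine nucleotide pair showed the same kind of split. In the coenzyme A pair, Slc25a16 and Slc25a42 both stood above background in controls, at 12.26 and 7.77. Slc25a36, a pyrimidine nucleotide carrier, measured 12.33 ± 0.12, and its paralog Slc25a33 lay within background at 6.27 ± 0.10 (SD, n = 3 each). Slc25a51, the NAD carrier of mitochondria, measured 15.17 ± 0.12, and the peroxisomal cofactor carrier Slc25a17 measured 13.33 ± 0.17 (SD, n = 3 each). The folate carrier Slc25a32 lay within background at 6.67 ± 0.56 (SD, n = 3), with control 1 at 6.04 and the other controls at 7.11 and 6.87. Its signal in mutants was 6.98, 6.91 and 6.96 (log2 change 0.28, SE 0.26, limma adjusted p = 0.774).

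Both members of the iron and glutathione pairs stood above background. The mitoferrin genes Slc25a28 and Slc25a37, which import iron, measured 11.93 ± 0.19 and 8.62 ± 0.13, and the glutathione carrier genes Slc25a39 and Slc25a40 measured 15.51 ± 0.06 and 8.61 ± 0.18 (SD, n = 3 each). Carboxylate carriers were clear of background in 4 of 6 cases. Slc25a1, which exports citrate for lipid synthesis, measured 15.34 ± 0.10, the oxoglutarate carrier gene Slc25a11 measured 13.97 ± 0.10, and the dicarboxylate carrier gene Slc25a10 measured 12.84 ± 0.14 (SD, n = 3 each). Slc25a35 measured 11.81 ± 0.05 (SD, n = 3), while the oxodicarboxylate carrier gene Slc25a21 and Slc25a34 lay within background.

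Comparing mutant with control glands asked whether carrier transcripts differed after Cre was directed against both kinases. Over all probe sets, 0 of 46 carriers passed a limma adjusted p of 0.05, where 0.0721% of all probe sets did. That background was 0.054% for higher and 0.018% for lower signals in mutants. The smallest adjusted p was 0.141, for Slc25a24 (limma). At an unadjusted p under 0.05 there were 6 carriers, or 13.0%, beside 10.4% of all probe sets. Of these carriers, Slc25a24, Slc25a13 and Slc25a53 were higher, and Slc25a38, Slc25a51 and Slc25a29 were lower. With a mean above background it was 4 of 31 carriers, or 12.9%, beside 13.1% of such probe sets. The groups did not overlap for 11 carriers, or 23.9%, beside 16.4% of all probe sets. They were 3 higher and 8 lower, where 8.0% and 8.36% of all probe sets were. Among the 31 carriers above background 9 did not overlap, or 29.0%, beside 22.2% of all probe sets with a mean above background.

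Log2 changes were below 0 for 32 of 46 carriers, 69.6%, beside 52.0% of all probe sets. Their median change was -0.14, and the median over all probe sets was -0.01. Above background the change was below 0 for 23 of 31 carriers, 74.2%, beside 53.7% of such probe sets, with a median of -0.16 beside -0.02. Relative to each carrier's control mean, the median carrier deviated by -0.02, -0.02 and 0.06 in controls and by -0.04, -0.15 and -0.14 in mutants 1, 2 and 3. Over the 31 carriers above background the same medians were -0.01, -0.02 and 0.06 for the 3 controls, against -0.09, -0.22 and -0.15 for mutants 1, 2 and 3. Mutant 1 thus lay nearest to the controls, and over these 31 every mutant median was below every control median. The list mean of cortical markers was also lower in every mutant than in every control. So was that of the 18 general mitochondrial genes described further on, with 12.76 to 12.77 in controls and 12.59 to 12.75 in mutants. The part of either in the carriers' shift was not tested. For 41 carriers the 95% interval of the limma fit lay within a 2-fold change in either direction. The exceptions were Slc25a24, Slc25a38, Slc25a25, Slc25a42 and Slc25a34. The 41 include every carrier with both group means within background but Slc25a34. For those dim carriers a narrow interval of the signal does not bound the change of the transcript.

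**Figure D2:**
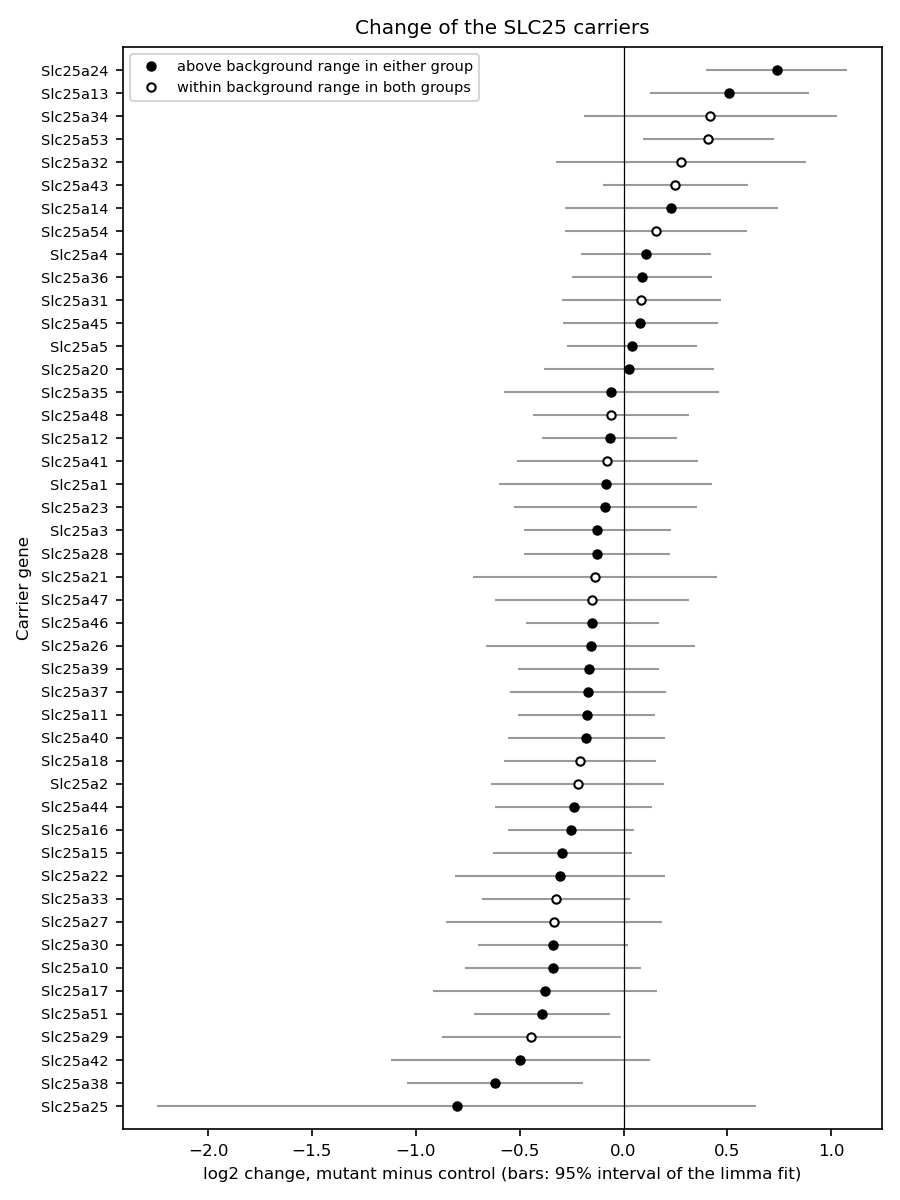
Log2 change, mutant minus control (horizontal axis), of each carrier (rows, ordered by change) with the 95% interval of the limma fit as a bar; open points are the 15 genes with both group means within the background range. Most points lie left of 0, the interval of Slc25a24 runs from 0.40 to 1.08, and that of Slc25a25 is the widest.

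By substrate, changes below 0 were counted for 11 of 14 carriers of amino acids and their derivatives (median -0.18), 5 of 6 carboxylate carriers (median -0.11), 5 of 7 cofactor and nucleotide carriers (median -0.32) and 4 of 4 iron and glutathione carriers (median -0.17). Adenine nucleotide and phosphate carriers were split evenly, with 4 of 8 below 0 and a median of -0.02. Of the 3 relatives of uncoupling proteins 2 were below 0, and of 4 outer membrane or orphan members 1 was, Slc25a46. The 3 outer membrane or orphan members above 0 had both group means within background. So did 5 of the 14 amino acid carriers, all below 0. The same held for 2 each of the adenine nucleotide, carboxylate and cofactor groups and for 1 uncoupling relative. Over all probe sets 52.0% were below 0, and differences between the substrate groups were not tested. Within each of these groups 0 carriers passed the limma test.

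Slc25a24, which encodes a calcium-regulated ATP-Mg/phosphate carrier, had the smallest p of the family. Its log2 signal was 11.87, 11.69 and 12.00 in controls and 12.53, 12.58 and 12.66 in mutants (probe set TC0300001159.mm.2). Every mutant animal lay above every control animal. The measured difference was 1.67-fold, or 0.74 on the log2 scale (SE 0.15, 95% interval 0.40 to 1.08), and did not pass over all probe sets (limma adjusted p = 0.141). Under limma's trend and robust options the adjusted p was 0.0225, and over the other alternatives with 6 animals it ran from 0.0541 to 0.297. Leaving out any 1 animal gave a change between 0.65 and 0.81 and a limma adjusted p between 0.182 and 0.407. List means of endothelial, macrophage and smooth muscle markers separated the groups in the same direction, and their part in this difference was not tested. With the adipocyte mean as a covariate the change of Slc25a24 was 0.74 (limma adjusted p = 0.292).

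Slc25a23, its calcium-regulated paralog, measured 13.64, 13.65 and 13.74 in controls and 13.99, 13.41 and 13.37 in mutants. Mutant 1 was above all controls and the other mutants below them, so the mean change of -0.09 (SE 0.19, limma adjusted p = 0.917) has no common direction. The third paralog, Slc25a25, was the most variable carrier, with 8.93, 8.46 and 9.73 in controls and 7.49, 7.38 and 9.84 in mutants. It was singled out after its values were seen. Mutants 1 and 2 lay below all controls and mutant 3 above them. Its mean change was -0.80 (SE 0.63, limma adjusted p = 0.724), and was -1.61 without mutant 3 (limma adjusted p = 0.198). It was -0.38 without mutant 2, -0.43 without mutant 1 and -0.46 without control 3, so its size rests on single animals.

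The first annotated promoter windows of the paralogs Slc25a23 and Slc25a24 are shown because their ratio had the largest difference among the 4 carrier pairs whose groups did not overlap, as described further on. The bases come from RefSeq, build GRCm38.p6, matched by gene identifier, and only bases upstream of the annotated gene are printed, 5′ to 3′ on the gene's strand. Capitals mark GGAATG or its reverse complement CATTCC, the core letters bound by TEAD factors.
Slc25a23, chr17:57059910-57060113, minus strand: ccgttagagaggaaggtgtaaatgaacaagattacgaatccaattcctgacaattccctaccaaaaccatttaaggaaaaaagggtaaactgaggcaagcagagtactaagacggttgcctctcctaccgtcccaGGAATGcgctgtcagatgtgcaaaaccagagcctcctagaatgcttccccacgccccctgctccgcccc
Slc25a24, chr3:109122899-109123148, plus strand: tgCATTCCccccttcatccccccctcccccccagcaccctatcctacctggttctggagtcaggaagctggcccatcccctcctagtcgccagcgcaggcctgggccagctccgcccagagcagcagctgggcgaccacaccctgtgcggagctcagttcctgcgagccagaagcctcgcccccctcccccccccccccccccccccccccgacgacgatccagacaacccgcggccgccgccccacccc
The Slc25a24 window was richer in G and C, 72.8% of 250 bases, than that of Slc25a23, 50.0% of 204 bases.

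Over windows of 300 bases around the first listed start, available for 36 of the 46 carriers, GGAATG on either strand was present in 7, or 19.4%, beside 14.6% of 27025 genes. Those 7 were Slc25a5, Slc25a16, Slc25a20, Slc25a23, Slc25a24, Slc25a25 and Slc25a36, and of these Slc25a16 and Slc25a24 separated the groups, in opposite directions. AAGGTCA, the half-site of orphan nuclear receptors such as that encoded by Nr5a1, was present in the Slc25a34 window alone, or 2.78%, beside 4.66% of all genes. TGACGTCA, the cAMP response element, was present in the window of Slc25a36 alone, or 2.78%, beside 1.88% of all genes. No match overlapped another motif in the 2 windows printed. The carrier windows had a median of 60.2% G and C and 17 CG steps, beside 52.7% and 7 over all genes. The shares are therefore not matched for base composition. A match is only a match of letters.

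Slc25a38, which brings glycine into mitochondria for heme synthesis, measured 10.91, 10.95 and 11.05 in controls and 9.99, 10.57 and 10.49 in mutants (probe set TC0900001594.mm.2). Every mutant animal was below every control animal, and mutant 1 was the lowest. The log2 change was -0.62 (SE 0.18, 95% interval -1.04 to -0.20, limma adjusted p = 0.312). Erythroid markers, which include the heme synthesis gene Alas2, had list means over 3 measured genes of 5.69 to 6.36 in controls and 5.85 to 6.34 in mutants. Alas2 itself averaged 7.13 in controls and 7.73 in mutants, with overlapping groups (log2 change 0.60, SE 0.27, limma adjusted p = 0.491). The other genes of the list, Slc4a1 and Epb42, changed by -0.23 and -0.06. All 3 lay near or within the background range, with control means of 7.13 for Alas2, 7.52 for Slc4a1 and 3.45 for Epb42. The list therefore says little about erythroid content.

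Slc25a13, the dim aspartate/glutamate exchanger, measured 7.20, 7.32 and 7.47 in controls and 7.61, 8.05 and 7.86 in mutants (probe set TC0600001813.mm.2). Mutant animals lay above the controls and above the background range. The log2 change was 0.51 (SE 0.17, 95% interval 0.13 to 0.89, limma adjusted p = 0.355), and a control signal at the edge of background can make it too small.

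Slc25a51, the NAD carrier, measured 15.31, 15.09 and 15.10 in controls and 14.74, 14.84 and 14.76 in mutants. The groups did not overlap, and the log2 change was -0.39 (SE 0.14, 95% interval -0.72 to -0.06, limma adjusted p = 0.399). Slc25a53, an orphan member, measured 6.06, 5.98 and 6.15 in controls and 6.47, 6.53 and 6.41 in mutants. All 6 values lay within the background range even though the groups did not overlap (log2 change 0.41, SE 0.14, limma adjusted p = 0.365). Slc25a29, a carrier of basic amino acids, measured 7.50, 7.17 and 6.92 in controls and 6.73, 6.60 and 6.92 in mutants. Mutant 3 was level with the lowest control, and both group means were within the background range (log2 change -0.44, SE 0.19, limma adjusted p = 0.469). Without control 1 the change was -0.29.

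Slc25a30, a relative of the uncoupling proteins, measured 12.02, 12.24 and 12.02 in controls and 11.66, 11.64 and 11.96 in mutants, with mutant 3 just below the controls (log2 change -0.34, SE 0.16, limma adjusted p = 0.514). Slc25a33, the dim pyrimidine nucleotide carrier, measured 6.35, 6.30 and 6.15 in controls and 5.96, 5.76 and 6.11 in mutants (log2 change -0.32, SE 0.16, limma adjusted p = 0.531). Mutant 3 was again the mutant nearest to the controls for both genes.

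**Figure D3:**
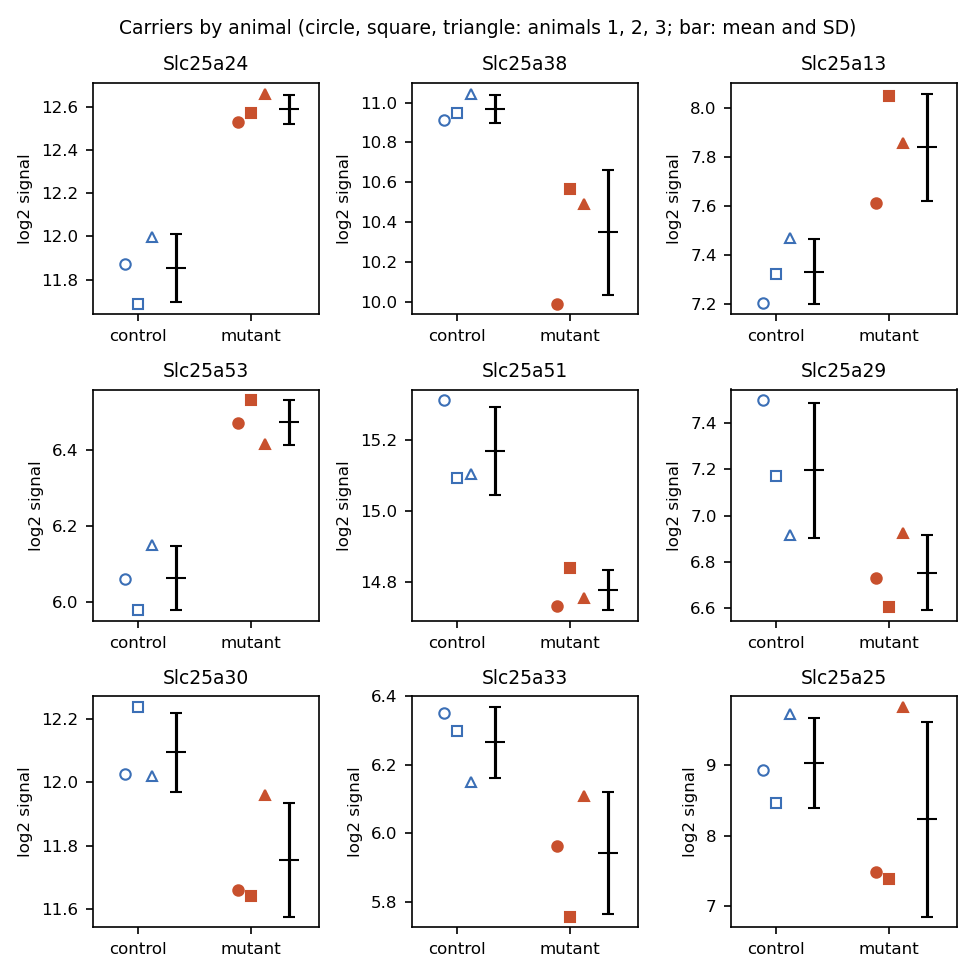
Log2 signal by animal for the 8 carriers of smallest unadjusted p and for Slc25a25; symbols mark animals 1, 2 and 3, the bar beside each group is its mean and SD, and the vertical axis differs between panels. Groups are apart in every panel but those of Slc25a29 and Slc25a25, and for Slc25a25 mutant 3 lies above all controls.

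A further 4 carriers separated the groups by smaller differences, all lower in mutants. Slc25a16, a carrier linked to coenzyme A, had the tightest groups, with 12.26, 12.27 and 12.25 in controls and 12.01, 11.99 and 12.02 in mutants. Its log2 change was -0.25 (SE 0.13, limma adjusted p = 0.567), where the moderated SE is wider than the animals' own spread. Slc25a15, the ornithine carrier, measured 7.90, 7.75 and 7.61 in controls and 7.48, 7.48 and 7.42 in mutants (log2 change -0.29, SE 0.15, limma adjusted p = 0.538). Slc25a10, the dicarboxylate carrier, measured 12.71, 13.00 and 12.82 in controls and 12.68, 12.17 and 12.66 in mutants (log2 change -0.34, SE 0.18, limma adjusted p = 0.583). Slc25a46, an outer membrane protein with a role in mitochondrial shape, measured 13.52, 13.31 and 13.35 in controls and 13.26, 13.21 and 13.26 in mutants (log2 change -0.15, SE 0.14, limma adjusted p = 0.770). For Slc25a15, Slc25a10 and Slc25a46 the gap between the groups was smaller than the range of the controls. The change of Slc25a10 was -0.17 without mutant 2, and that of Slc25a46 was -0.09 without control 1.

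The carriers that serve ATP synthesis differed by little. Slc25a4 measured 14.67, 14.76 and 14.64 in controls and 14.76, 14.86 and 14.78 in mutants (log2 change 0.11, 95% interval -0.20 to 0.42). Slc25a5 measured 15.97, 15.97 and 16.01 in controls and 15.94, 16.03 and 16.11 in mutants (log2 change 0.04, 95% interval -0.27 to 0.35). Both ADP/ATP carriers overlapped between the groups. Slc25a3 measured 17.43, 17.25 and 17.26 in controls and 17.08, 17.09 and 17.39 in mutants (log2 change -0.13, 95% interval -0.48 to 0.23). Its groups overlapped too, with mutants 1 and 2 below the controls and mutant 3 among them.

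Mutant 1, the animal with the highest adipocyte mean, stood apart from the other mutants for several carriers. Slc25a1, the citrate carrier, measured 15.23, 15.39 and 15.40 in controls and 15.76, 15.02 and 14.98 in mutants. Mutant 1 was above all controls and mutants 2 and 3 were below them. Slc25a35 had the same order, with 11.77, 11.79 and 11.86 in controls and 12.27, 11.42 and 11.56 in mutants. Slc25a20 measured 11.39, 11.27 and 11.52 in controls and 11.73, 11.29 and 11.25 in mutants. In all, 7 of 46 carriers had their highest signal in mutant 1, no larger a share than the 18.3% of all probe sets. With the adipocyte mean as a covariate, the change of Slc25a1 was -0.26 instead of -0.09, that of Slc25a35 -0.22 instead of -0.06, that of Slc25a23 -0.22 instead of -0.09 and that of Slc25a20 -0.08 instead of 0.03. None of these passed (limma adjusted p from 0.744 to 0.936). Mutant 1 had the highest signal for each of these carriers, so a downward move partly follows from the choice to show them. A link to fat was not tested.

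**Figure D4:**
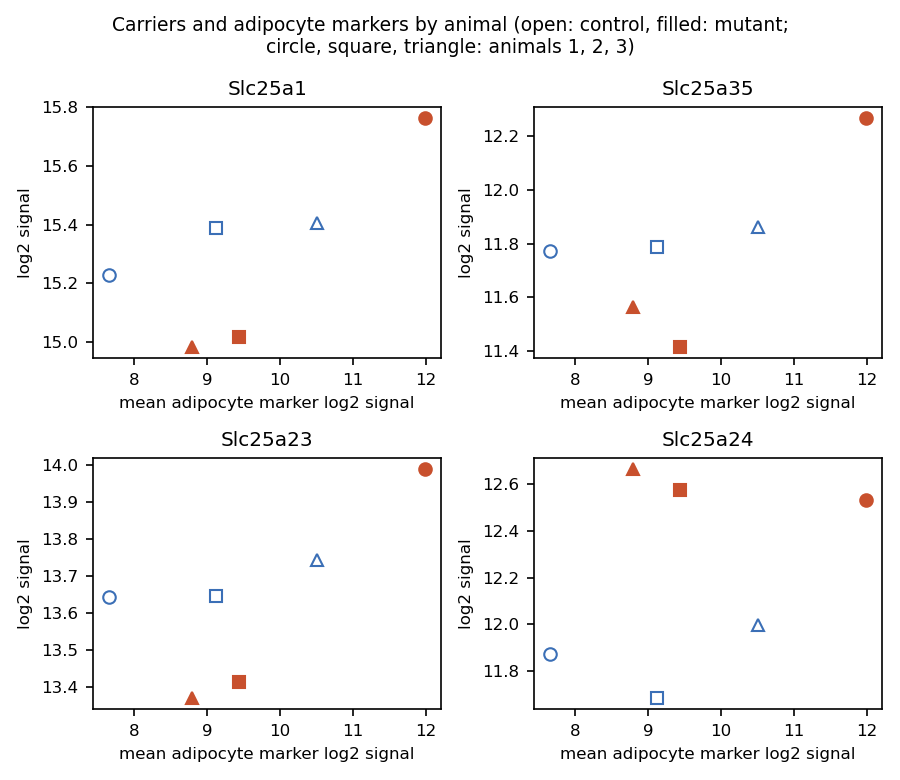
Log2 signal of 4 carriers (vertical axes) against the mean log2 signal of the adipocyte markers (horizontal axes) in each animal; open symbols are controls, filled symbols mutants, and shapes mark animals 1, 2 and 3. For Slc25a1, Slc25a35 and Slc25a23 mutant 1 lies at the upper right, whereas the 3 mutants share a high level of Slc25a24.

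Whether related carriers changed unequally was asked for 13 pairs through the log2 ratio of both signals within each animal. An exact two-sided permutation test over animals cannot go below p = 0.1 here, so 0 pairs could pass, and the smallest p adjusted by Benjamini-Hochberg over the 13 pairs was 0.325. Groups did not overlap for 4 of the 13 pairs, and no share over other pairs of genes was computed to set beside this. The ratio of Slc25a23 to Slc25a24 was 1.77, 1.96 and 1.74 log2 units in controls and 1.45, 0.84 and 0.71 in mutants, a difference of -0.82 (exact permutation p = 0.1). The ratio of Slc25a12 to Slc25a13 was 7.79, 7.49 and 7.50 in controls and 7.22, 6.89 and 6.94 in mutants, a difference of -0.58 (exact permutation p = 0.1). Slc25a12 itself measured 14.99, 14.81 and 14.96 in controls and 14.83, 14.94 and 14.79 in mutants (log2 change -0.07, SE 0.14, limma adjusted p = 0.913). In both pairs the ratio was lower in each mutant, and it was the signal of Slc25a24 or Slc25a13 that separated the groups.

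The ratio of Slc25a33 to Slc25a36 was -6.08, -6.07 and -6.04 in controls and -6.35, -6.76 and -6.30 in mutants, a difference of -0.41 (exact permutation p = 0.1). Slc25a36 itself measured 12.43, 12.37 and 12.19 in controls and 12.32, 12.52 and 12.41 in mutants. The ratio of Slc25a14 to Slc25a30 was -5.15, -4.65 and -4.51 in controls and -4.37, -3.95 and -4.28 in mutants, a difference of 0.57 (exact permutation p = 0.1). Slc25a14, another relative of uncoupling proteins, measured 6.87, 7.58 and 7.51 in controls and 7.29, 7.69 and 7.68 in mutants. Here too Slc25a33 and Slc25a30 separated the groups by themselves, and their partners Slc25a36 and Slc25a14 overlapped. Slc25a33 in all animals, Slc25a14 in control 1 and mutant 1, and Slc25a13 in controls 1 and 2 lay within the background range, where a ratio is compressed.

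The remaining 9 pairs overlapped between the groups. The ratio of Slc25a4 to Slc25a5 was -1.29 ± 0.08 in controls and -1.23 ± 0.08 in mutants, a difference of 0.07 (SD, n = 3 each; exact permutation p = 0.3). The iron pair Slc25a28 and Slc25a37 differed by 0.04 and the glutathione pair Slc25a39 and Slc25a40 by 0.01 (exact permutation p = 1 each). The ratio of Slc25a25 to Slc25a24 differed by -1.54, with SDs of 0.49 in controls and 1.33 in mutants (n = 3 each; exact permutation p = 0.3).

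**Figure D5:**
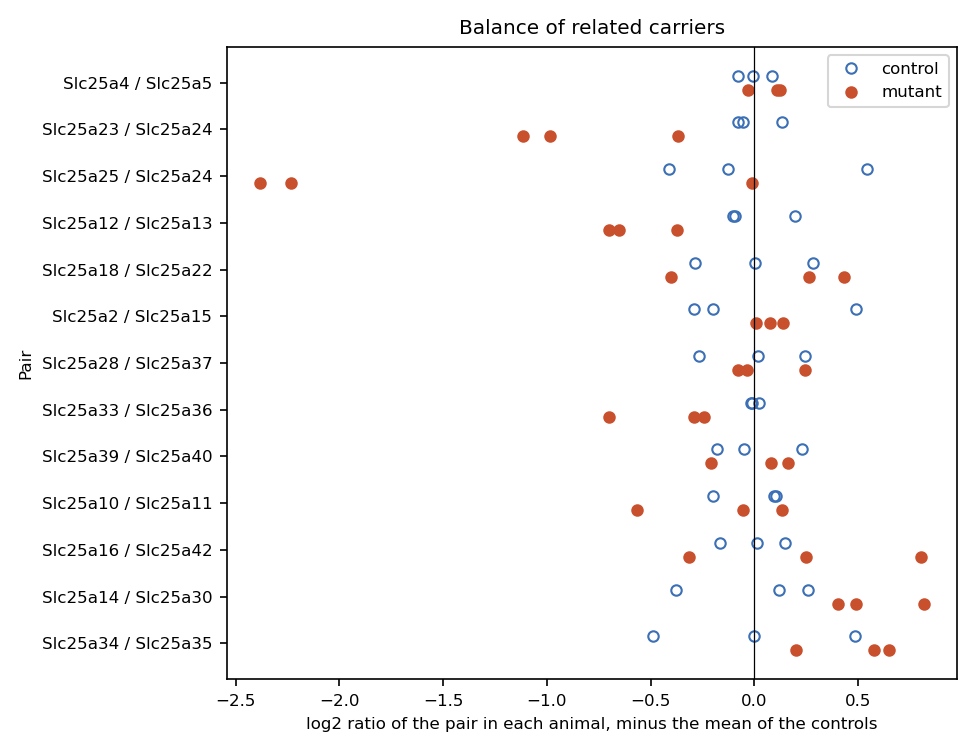
Log2 ratio of each of 13 carrier pairs in each animal, given relative to the mean of the controls (horizontal axis); open circles are controls and filled circles mutants. The groups are apart for Slc25a23 / Slc25a24, Slc25a12 / Slc25a13, Slc25a33 / Slc25a36 and Slc25a14 / Slc25a30.

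In the RefSeq gene table of GRCm38.p6, 4 pairs of carriers are next to each other among protein-coding genes. They are Slc25a54 with Slc25a24, Slc25a41 with Slc25a23, Slc25a43 with Slc25a5, and Slc25a29 with Slc25a47. The neighbour of Slc25a24, Slc25a54, lay within background and measured 4.68, 4.64 and 4.98 in controls and 5.15, 5.02 and 4.60 in mutants, an overlapping range.

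Carriers of the same family under other symbols included Ucp1, the proton carrier of brown fat, whose signal spanned 3.21, 7.17 and 11.42 in controls and 10.67, 8.97 and 7.39 in mutants. Its values overlapped widely, and Ucp1 is itself one of the adipocyte markers. Ucp3 measured 5.09, 5.69 and 6.89 in controls and 7.67, 6.22 and 5.74 in mutants. Mtch2, an outer membrane member that inserts proteins, measured 0.14 higher in mutants on the log2 scale (SE 0.14, limma adjusted p = 0.783), and Mtch1 differed by -0.01 (SE 0.14).

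Import machinery for carrier proteins, the TOM and TIM22 routes with their small chaperones, had 3 of 13 genes higher and 10 lower, with a median change of -0.06. Of these 0 passed the limma test, and 0 had an unadjusted p under 0.05. Timm13, a small chaperone of the intermembrane space, changed by -0.37 (SE 0.19) and Agk, a lipid kinase in the TIM22 complex, by -0.33 (SE 0.18). General mitochondrial genes, such as subunits of the respiratory chain and ATP synthase, were lower for 12 of 18, with a median of -0.09 and 0 past the limma test or an unadjusted p of 0.05. Sdhb, a subunit of succinate dehydrogenase, changed by -0.28 (SE 0.14), and Cox4i1, of cytochrome c oxidase, by -0.32 (SE 0.17).

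Other transporters of mitochondrial membranes had 6 of 17 genes higher and 11 lower, with a median of -0.10 and 0 past the limma test, and 4 with an unadjusted p under 0.05, or 23.5%, beside 10.4% of all probe sets and 13.1% of those above background. Tspo, an outer membrane protein that binds cholesterol, measured 13.26, 13.31 and 13.49 in controls and 12.23, 12.92 and 12.82 in mutants (log2 change -0.70, SE 0.21, limma adjusted p = 0.308). As with Slc25a38, every mutant was below every control and mutant 1 was the lowest. The inner membrane transporters Abcb10 and Abcb8 changed by -0.54 (SE 0.16) and -0.51 (SE 0.15), and the sideroflexin gene Sfxn3 by 0.52 (SE 0.16). Both group means of Abcb10, 7.25 in controls and 6.71 in mutants, lay within the background range.

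Enzymes that work beside the carriers were balanced, with 10 of 21 higher, a median of -0.02, 0 past the limma test and 1 with an unadjusted p under 0.05. That gene was Cpt1a, which makes the acylcarnitines that Slc25a20 carries, at 14.98, 14.90 and 14.79 in controls and 14.33, 14.32 and 14.52 in mutants (log2 change -0.50, SE 0.14, limma adjusted p = 0.297). Got1, the cytosolic aspartate aminotransferase of the malate-aspartate shuttle, measured 15.86, 15.83 and 15.75 in controls and 15.01, 15.14 and 15.82 in mutants (log2 change -0.49, SE 0.22, limma adjusted p = 0.494). Mutant 3 lay above the controls for Slc25a25, and it stood among them for Got1. Slc25a17, the peroxisomal carrier, likewise measured 13.27, 13.20 and 13.52 in controls and 12.65, 12.73 and 13.48 in mutants.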

How the data were processed

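Per the labels, each array held RNA of 1 animal, and the authors deposited 1 log2 value per probe set and array. Their range marks them as log2. Transcriptome Analysis Console 4.0 is credited in the submitters' processing notes. How background was subtracted, probes summarised and arrays scaled is not stated there, nor is a genome build. Where arrays are scaled to each other, a change common to most transcripts is not seen. After removal of 6640 control probe sets, 22206 remained, of which 19572 had 1 symbol in the platform annotation. Mutant minus control was fitted over all 6 arrays with limma 3.58.1 (lmFit, then eBayes; R 4.3.3), without covariates or filter. Its two-sided p-values were corrected over all 22206 probe sets (Benjamini-Hochberg). SE and intervals belong to that moderated fit. Pair ratios were compared by exact permutation with scipy 1.17.1. The fit was tested on simulated data.

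The carriers, lists, pairs and alternatives were chosen with earlier results of these data known. Values by animal are given for the 8 carriers of smallest p, those whose groups separate, members of separated pairs, and Slc25a1, Slc25a3, Slc25a4 and Slc25a5. Other lists are shown by up to 4 genes of smallest p, and Ucp1. Slc25a17, Slc25a20, Slc25a25, Slc25a32, Slc25a35 and Slc25a54 were added after their values were seen, for animals that stood apart or to complete a comparison. Samples were grouped by their descriptions, with each array a different animal. The number of arrays limits precision.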

Additional observations from a re-analysis of the deposited data

How the results depend on the processing

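The count of carriers past the limma threshold was 0 under all alternatives but 1, the trend and robust variance model, where it was 1 (Slc25a24). The median change of the carriers lay between -0.16 and -0.10 when any animal was left out, and stayed below 0 under every alternative run. The count over all probe sets moved more, from 16 to 38 with quantile normalization, 32 with a common median, 92 without dim probe sets, 41 with single-symbol probe sets, 175 with trend and robust, 48 with array weights, 2 with the adipocyte and 8 with the intron control covariate, 3 at a threshold of 0.01 and 108 at 0.1. It ran from 1 to 15 when any animal was left out, with 1 without each of the controls and 6 without mutant 2. The cause was not tested. Replicate numbers are shared by the groups but are not said to pair animals, and deviations of same-numbered arrays correlated at -0.09, 0.08 and -0.07. With the replicate number as a block, 1 probe set and 0 carriers passed. Of the 26 carriers given by animal, 21 kept the sign of their change in every setting. Slc25a1 ran from -0.34 to 0.05 when any animal was left out (0.033 without mutant 2, 0.049 without mutant 3), and Slc25a23 from -0.29 to 0.02 (0.0019 without mutant 2, 0.0231 without mutant 3). Slc25a35 ran from -0.32 to 0.11 (0.1074 without mutant 2, 0.0341 without mutant 3), and Slc25a32 from -0.04 (-0.0401 without control 1) to 0.50. Slc25a20 ran from -0.13 (-0.1276 without mutant 1, -0.0356 without control 2) to 0.11, and was -0.0006 with a common median, -0.0804 with the adipocyte and -0.0084 with the intron control covariate. Each carrier has 1 probe set, so averaging probe sets changed nothing. For the 15 carriers within the background range, signal over background limits what can be seen.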
